A study of Mus musculus with 8 samples.

Results

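The genes described here are 36 that decide whether a cell divides, pauses or dies: Trp53 and its regulators, the targets that p53 switches on, the BCL2 family, the caspases and the death receptors. They are 36 of the 22852 genes that could be matched between 2 count tables of the embryonic mouse cortex. They were chosen by name, with the genotype differences at both stages already known, and Hrk was named for its values at E12.5. The genotype differences of these genes are therefore given as a description. By role, 3 genes are p53 and its regulators, 9 are p53 targets in cell cycle control, repair or metabolism, 8 are BH3-only genes, 2 are effectors, 4 are antiapoptotic genes, 7 belong to the apoptosome and caspases, and 3 are death receptors.

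p53 is a transcription factor that is held low by Mdm2 and Mdm4 and accumulates when a cell senses DNA damage or a mitosis that takes too long. It then switches on genes that stop the cell cycle, such as Cdkn1a, and BH3-only genes, such as Bbc3 and Pmaip1. BH3-only proteins block the antiapoptotic members of the BCL2 family and so free Bax and Bak1 to open the outer mitochondrial membrane, after which cytochrome c, Apaf1 and caspase-9 form the apoptosome. In the embryonic cortex this route removes radial glial cells whose mitosis has gone wrong.

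Mboat7 encodes an enzyme that places arachidonic acid in phosphatidylinositol, and the study asked how its loss affects early cortical development. Cortices were dissected from Mboat7+/- and Mboat7-/- embryos at E11.5 and E12.5, which gave 8 cortices, 2 for each genotype of a stage. The knockout was in every tissue, the mice were kept on C57BL/6N, no treatment was given, and each cortex was a separate biological replicate. Its replicate number is used below as a batch number. The sample titles name only the biological replicate, so whether cortices with the same number were processed together is not known. The E11.5 and E12.5 libraries came from different sequencing providers and platforms, so stage and provider cannot be told apart.

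The authors deposited raw counts of reads per gene, with a total of between 20799311 and 28189771 per cortex, and levels are given here as CPM, counts scaled to a common library size after normalization. Mboat7 itself was set beside the labels, and its counts could not verify them. At E11.5 it had 700 and 876 counts in Mboat7+/- and 1103 and 860 counts in cortices labelled Mboat7-/-, and at E12.5 it had 739 and 782 counts against 730 and 729. The targeted gene was thus not lower at E11.5, and lower by only 0.17 on the log2 scale at E12.5. The part of the gene that the allele lacks is not given in the sources used here, so every direction below rests on the label. All 9 markers of the dorsal telencephalon were detected, with summed levels of 2367 to 2937 CPM at E11.5 and 2443 to 2615 CPM at E12.5. At E11.5, 8 of the 9 had a log2 fold change below 0 (median -0.26) and 5 were lower without overlap, with sums of 2782 and 2937 CPM in Mboat7+/- against 2367 and 2902 CPM, and Emx1 differed most (-0.53). Their part in the E11.5 results was not tested. Markers of other cell types differed between the groups, and their part in the results was not tested. The summed level of 6 blood genes at E11.5 was 6751 and 5089 CPM in Mboat7+/- cortices against 3528 and 3747 CPM, and at E12.5 it was 3783 and 5672 CPM against 3853 and 2494 CPM. Of these genes, Hba-a1 was at 0 in every E11.5 cortex. The summed level of 7 mesenchyme genes at E11.5 was 1552 and 1503 CPM against 1740 and 1933 CPM. Mboat7+/- replicate 1 at E11.5 was the only cortex with Xist, the RNA of female cells, at 17875 counts, and no other cortex of either stage exceeded 2. In bulk tissue, fewer cells of a type and less RNA per cell cannot be told apart.

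Of the 36 genes, 35 passed the filter on low counts at each stage. The exception was Fas, the receptor for Fas ligand, with counts of 0 and 6 in Mboat7+/- and 4 and 2 in labelled Mboat7-/- cortices at E11.5, and of 5 and 3 against 1 and 3 at E12.5. These counts were near the floor of 3, which corresponds to between 0.106 and 0.144 CPM and covers counting error only. Fas was not compared further.

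At E12.5, the genes of this pathway that were higher in labelled Mboat7-/- cortices were mostly p53 targets and BH3-only genes. Those that were lower included both effectors, cytochrome c and Diablo. Neither class was higher as a whole. Of the 8 BH3-only genes, 3 were higher without overlap and 4 had a log2 fold change below 0. Among the p53 targets, Zmat3 was lower without overlap and Pmaip1 overlapped, with a log2 fold change of -0.13. Plk2, Sesn1 and Phlda3 overlapped as well, with log2 fold changes of 0.18, 0.11 and 0.01. Both labelled Mboat7-/- cortices lay above both Mboat7+/- cortices for 11 of 35 tested members (31.4%, against 16.9% of all 16326 genes tested): Hrk, Bbc3, Bcl2l11, Cdkn1a, Ccng1, Trp53inp1, Perp, Aen, Mdm2, Eda2r and Tnfrsf10b. Both lay below for 7 members (20%, against 15.2% of all genes): Bax, Bak1, Bad, Bcl2l1, Cycs, Diablo and Zmat3. These shares are given only beside their background, since the genes were picked with these differences in view. No member reached an FDR under 0.05 at E12.5, where 3 genes of all those tested did (0.0184%, edgeR's quasi-likelihood test, p adjusted by Benjamini-Hochberg). An unadjusted p under 0.05 was found for 8 members (22.9%, against 4.11% of all genes), of which 7 were higher (20% of members, against 2.76% of all genes) and Bak1 was lower (2.86%, against 1.35%). That count was 4 by DESeq2, 4 with the replicate block, and 3 without Mboat7+/- replicate 2 or without labelled Mboat7-/- replicate 2. The p-values rest on 2 embryos per genotype, with the spread of each gene drawn toward that of all genes. With the replicate number, used here as the batch, as a block, 21 genes and, among the members, Hrk reached that FDR.

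**Figure D1:**
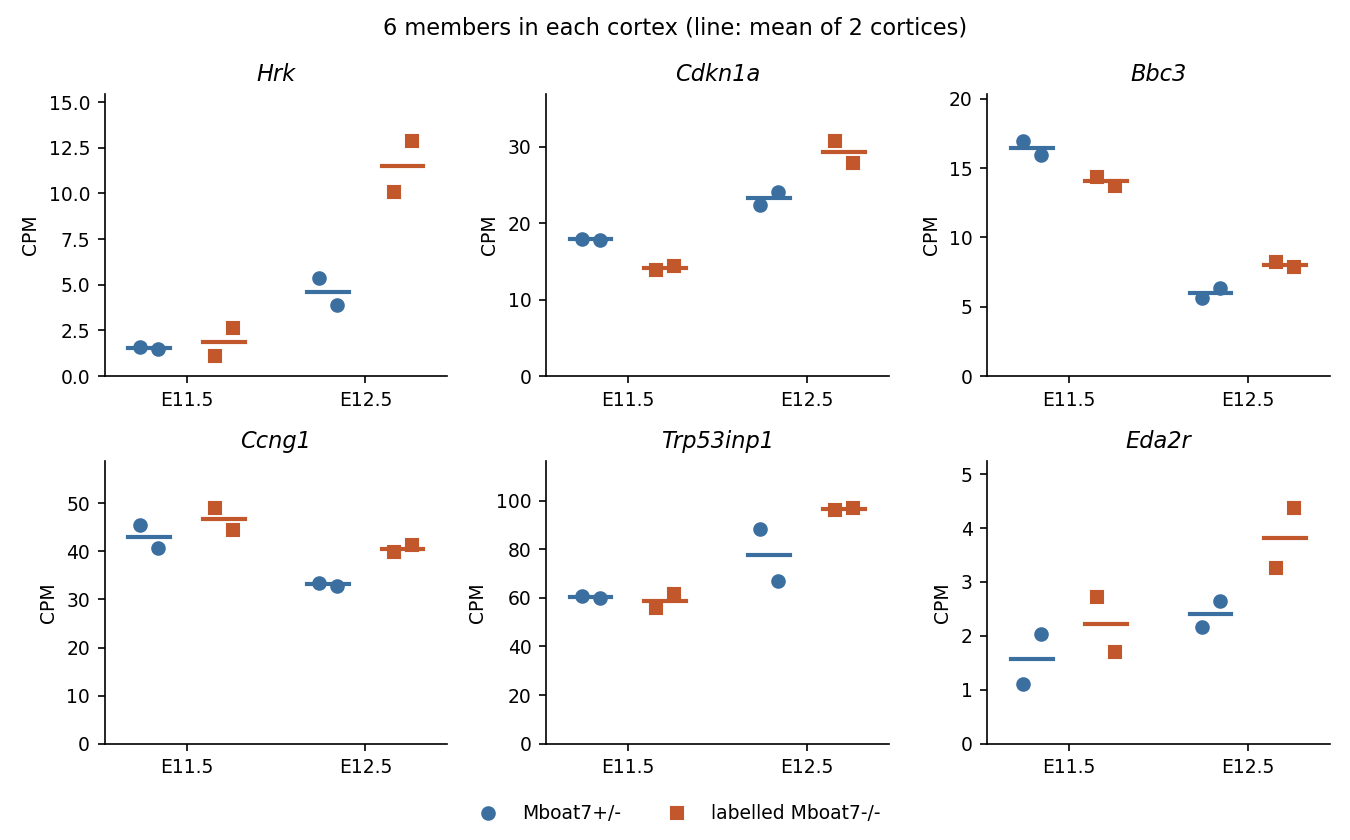
CPM (vertical axis, from 0) of 6 members in each of the 8 cortices by stage, with circles for Mboat7+/-, squares for cortices labelled Mboat7-/- and a line at the mean of 2 cortices. At E12.5 every square lies above every circle in all 6 panels, whereas at E11.5 the squares of Cdkn1a and Bbc3 lie below the circles and those of the other 4 genes overlap them.

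Hrk, a BH3-only gene induced in neurons deprived of trophic support, showed the largest difference of the members. Its level at E12.5 was 5.38 and 3.89 CPM in Mboat7+/- cortices and 10.1 and 12.9 CPM in labelled Mboat7-/- cortices, from counts of 112, 84, 232 and 292. The lowest labelled Mboat7-/- cortex was well above the highest Mboat7+/- cortex, and the SD of the 2 cortices was 1.05 CPM in Mboat7+/- and 2.00 CPM in labelled Mboat7-/- (n = 2). The fitted log2 fold change was 1.31 (standard error 0.22), a 2.48-fold higher level, and its p in edgeR's quasi-likelihood test, adjusted over all genes, was 0.192. Within batch 1 the log2 ratio of labelled Mboat7-/- to Mboat7+/- was 0.89 and within batch 2 it was 1.70. The summed blood level in Mboat7+/- and labelled Mboat7-/- was 3783 and 3853 CPM in batch 1 and 5672 and 2494 CPM in batch 2, and its part in the difference was not tested. With the block the adjusted p of Hrk was 0.0136 in the same test. Hrk was named for these same values, so neither p is independent support. The deviations of paired E12.5 cortices correlated at -0.12 across genes, so the pairs shared little that a block could remove. With any 1 of the cortices left out, the log2 fold change of Hrk ranged from 1.09 to 1.56.

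At E11.5 Hrk was scarce and its genotypes overlapped. The level was 1.616 and 1.47 CPM in Mboat7+/- cortices and 1.096 and 2.63 CPM in those labelled Mboat7-/-, from counts of 35, 39, 31 and 65. The lowest and the highest cortex were both labelled Mboat7-/-, and the log2 fold change was 0.26 (standard error 0.50). It was -0.49 without labelled Mboat7-/- replicate 2, and the 2 genotype differences of Hrk differed by 1.05 on the log2 scale (standard error 0.51), which did not reach an FDR under 0.05 (adjusted p = 0.853, edgeR's quasi-likelihood test).

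Among the other BH3-only genes, Bbc3 (Puma), a direct p53 target whose product binds the antiapoptotic BCL2 proteins, was higher at E12.5. It was at 5.62 and 6.39 CPM in Mboat7+/- and 8.20 and 7.90 CPM in labelled Mboat7-/- cortices, a log2 fold change of 0.42 (standard error 0.19). Bcl2l11 (Bim), which FOXO factors and JUN can induce, was at 22.8 and 24.5 CPM against 28.3 and 28.6 CPM, a log2 fold change of 0.27 (standard error 0.11). The genotypes of both genes were apart at E12.5. Bad, which growth factor signalling keeps inactive, was at 26.6 and 27.5 CPM against 23.7 and 25.2 CPM, with a log2 fold change of -0.15. Pmaip1 (Noxa), the other classical BH3-only target of p53, was at 2.69 and 1.80 CPM against 2.12 and 1.99 CPM and overlapped. Bid, Bmf and Bik overlapped as well, with log2 fold changes of -0.07, -0.09 and 0.15. Bik had counts of only 15, 15, 29 and 7, and its sign depended on single cortices. Of the 8 BH3-only genes, 4 had a log2 fold change above 0 and 4 below.

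Of the 9 p53 targets in cell cycle control, repair and metabolism, 8 had a log2 fold change above 0 at E12.5, where 51.2% of all genes did, and their median was 0.18, against 0.005 over all genes tested. Cdkn1a (p21), the cyclin-dependent kinase inhibitor through which p53 halts the cell cycle, was at 22.4 and 24.1 CPM in Mboat7+/- and 30.8 and 27.9 CPM in labelled Mboat7-/- cortices. The means were 23.2 ± 1.23 CPM (SD, n = 2) and 29.3 ± 2.08 CPM (SD, n = 2), and the log2 fold change was 0.34 (standard error 0.11). Ccng1, which encodes cyclin G1, was at 33.4 and 32.9 CPM against 39.9 and 41.2 CPM, a log2 fold change of 0.29 (standard error 0.10). For both genes the gap between the genotypes was wider than the spread within either of them.

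Trp53inp1, whose product acts in stress responses and autophagy, was at 88.2 and 66.9 CPM in Mboat7+/- cortices and 96.1 and 96.9 CPM in those labelled Mboat7-/-. The log2 fold change of 0.32 (standard error 0.12) rested on few cortices, since it was 0.13 without Mboat7+/- replicate 2. Perp, a desmosome gene, was scarce, with counts of 28 and 13 against 37 and 32 and a log2 fold change of 0.64 (standard error 0.43) that was 0.17 without Mboat7+/- replicate 2. Aen, a nuclease, was apart only narrowly, at 63.3 and 64.9 CPM against 65.2 and 65.2 CPM. Plk2, Sesn1 and Phlda3 had log2 fold changes of 0.18, 0.11 and 0.01 and overlapped. Zmat3, a zinc finger RNA-binding gene, was the exception, with a log2 fold change of -0.10 and genotypes that did not overlap.

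p53 can bind before the start site of a target, and only a short stretch around each start was searched here. Sites elsewhere in or near a gene would be missed, so a window without a match does not mean a gene without a site. The promoter windows of 30 of the 36 members were found in the RefSeq table of GRCm38.p6, which runs from 250 bases before to 50 bases after each start, and Bik, Perp, Pmaip1, Tnfrsf10b, Trp53inp1 and Zmat3 had no entry. The windows were searched for the p53 response element, here as 2 adjoining half-sites of 10 bases. The C and the G of each core were required, up to 2 other mismatches were allowed, and the motif reads the same on both strands. A match was found in the windows of Cdkn1a and Ccng1, with 1 mismatch each, and in 0.326% of all 32851 windows. With up to 3 mismatches, 6 members had a match (Aen, Bbc3, Ccng1, Cdkn1a, Sesn1 and Trp53), as did 1.63% of the 27025 genes. The bases before the start of Cdkn1a (chr17:29090729-29090978, plus strand, at the start of its pair with the match), Ccng1 (chr11:40755287-40755536, minus strand) and Hrk (chr5:118169514-118169763, plus strand) are printed to set the matched targets of the E12.5 pattern beside the gene that differed most, with each match in capitals and every sequence 5′ to 3′.
Cdkn1a: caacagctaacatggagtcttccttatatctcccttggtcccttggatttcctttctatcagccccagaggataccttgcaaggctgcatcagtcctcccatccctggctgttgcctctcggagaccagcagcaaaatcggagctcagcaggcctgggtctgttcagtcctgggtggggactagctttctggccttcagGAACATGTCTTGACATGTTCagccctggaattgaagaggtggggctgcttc
Ccng1: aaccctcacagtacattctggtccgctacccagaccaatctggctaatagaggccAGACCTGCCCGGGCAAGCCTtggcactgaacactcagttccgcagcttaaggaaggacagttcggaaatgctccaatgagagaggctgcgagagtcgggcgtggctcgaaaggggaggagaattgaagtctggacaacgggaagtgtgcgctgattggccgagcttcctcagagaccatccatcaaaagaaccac
Hrk: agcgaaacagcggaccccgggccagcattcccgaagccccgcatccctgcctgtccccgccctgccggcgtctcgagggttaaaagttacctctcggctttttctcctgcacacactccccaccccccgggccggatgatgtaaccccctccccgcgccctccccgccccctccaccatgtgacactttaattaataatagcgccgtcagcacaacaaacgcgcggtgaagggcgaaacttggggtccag
The match of Cdkn1a begins 51 bases before 1 of its 2 annotated starts, and the window of the other start holds none. That of Ccng1 begins 195 bases before its start, and the Hrk window holds none under these settings. A match is a property of the letters and was not tested for binding.

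Trp53 itself did not separate by genotype at E12.5. Its level was 138 and 136 CPM in Mboat7+/- and 140 and 132 CPM in labelled Mboat7-/- cortices, with overlapping genotypes and a log2 fold change of -0.01 (standard error 0.09). Mdm2, the ubiquitin ligase that degrades p53 and is also a p53 target, was at 72.1 and 72.6 CPM against 73.5 and 75.5 CPM, a log2 fold change of 0.04. Mdm4, which binds and silences p53, overlapped, at 102 and 84.5 CPM against 91.0 and 117 CPM. p53 is controlled mainly after its RNA is made, so its RNA level is no measure of its activity.

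The 2 death receptors that passed the filter are p53 targets and were higher at E12.5. Eda2r, a receptor for ectodysplasin A2, was at 2.16 and 2.64 CPM in Mboat7+/- and 3.25 and 4.37 CPM in labelled Mboat7-/- cortices, from counts of 45, 57, 75 and 99. Its log2 fold change was 0.67 (standard error 0.28), and without labelled Mboat7-/- replicate 2 it was 0.44. Tnfrsf10b, the receptor for TRAIL, was at 2.98 and 3.70 CPM against 4.29 and 4.81 CPM, a log2 fold change of 0.45 (standard error 0.24). Both genes rested on fewer than 110 counts in each cortex.

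Both pore-forming effectors had log2 fold changes below 0. Bax, which moves to mitochondria on activation, was at 81.7 and 84.0 CPM in Mboat7+/- and 76.1 and 74.2 CPM in labelled Mboat7-/- cortices at E12.5, a log2 fold change of -0.14 (standard error 0.09). Bak1, which resides in the outer mitochondrial membrane, was at 43.3 and 46.2 CPM against 40.6 and 33.2 CPM. Its log2 fold change was -0.28 (standard error 0.12) and was -0.14 without labelled Mboat7-/- replicate 2 and -0.44 without labelled Mboat7-/- replicate 1. Neither gene overlapped between genotypes.

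The antiapoptotic genes and the caspases had median log2 fold changes of -0.04 and 0.01 at E12.5. Bcl2l1 (Bcl-xL) was at 128 and 134 CPM in Mboat7+/- and 122 and 116 CPM in labelled Mboat7-/- cortices, a log2 fold change of -0.14 (standard error 0.09). Bcl2, Bcl2l2 and Mcl1 overlapped, with log2 fold changes of 0.01, 0.12 and -0.09. Cycs (cytochrome c) was at 55.5 and 63.4 CPM against 55.1 and 54.2 CPM, so that the gap came mainly from Mboat7+/- replicate 2. Diablo, which relieves caspases of their inhibitors, had a log2 fold change of -0.15 and no overlap. Apaf1, Casp2, Casp8, Casp9 and Xiap overlapped, with log2 fold changes from -0.01 to 0.19.

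**Figure D2:**
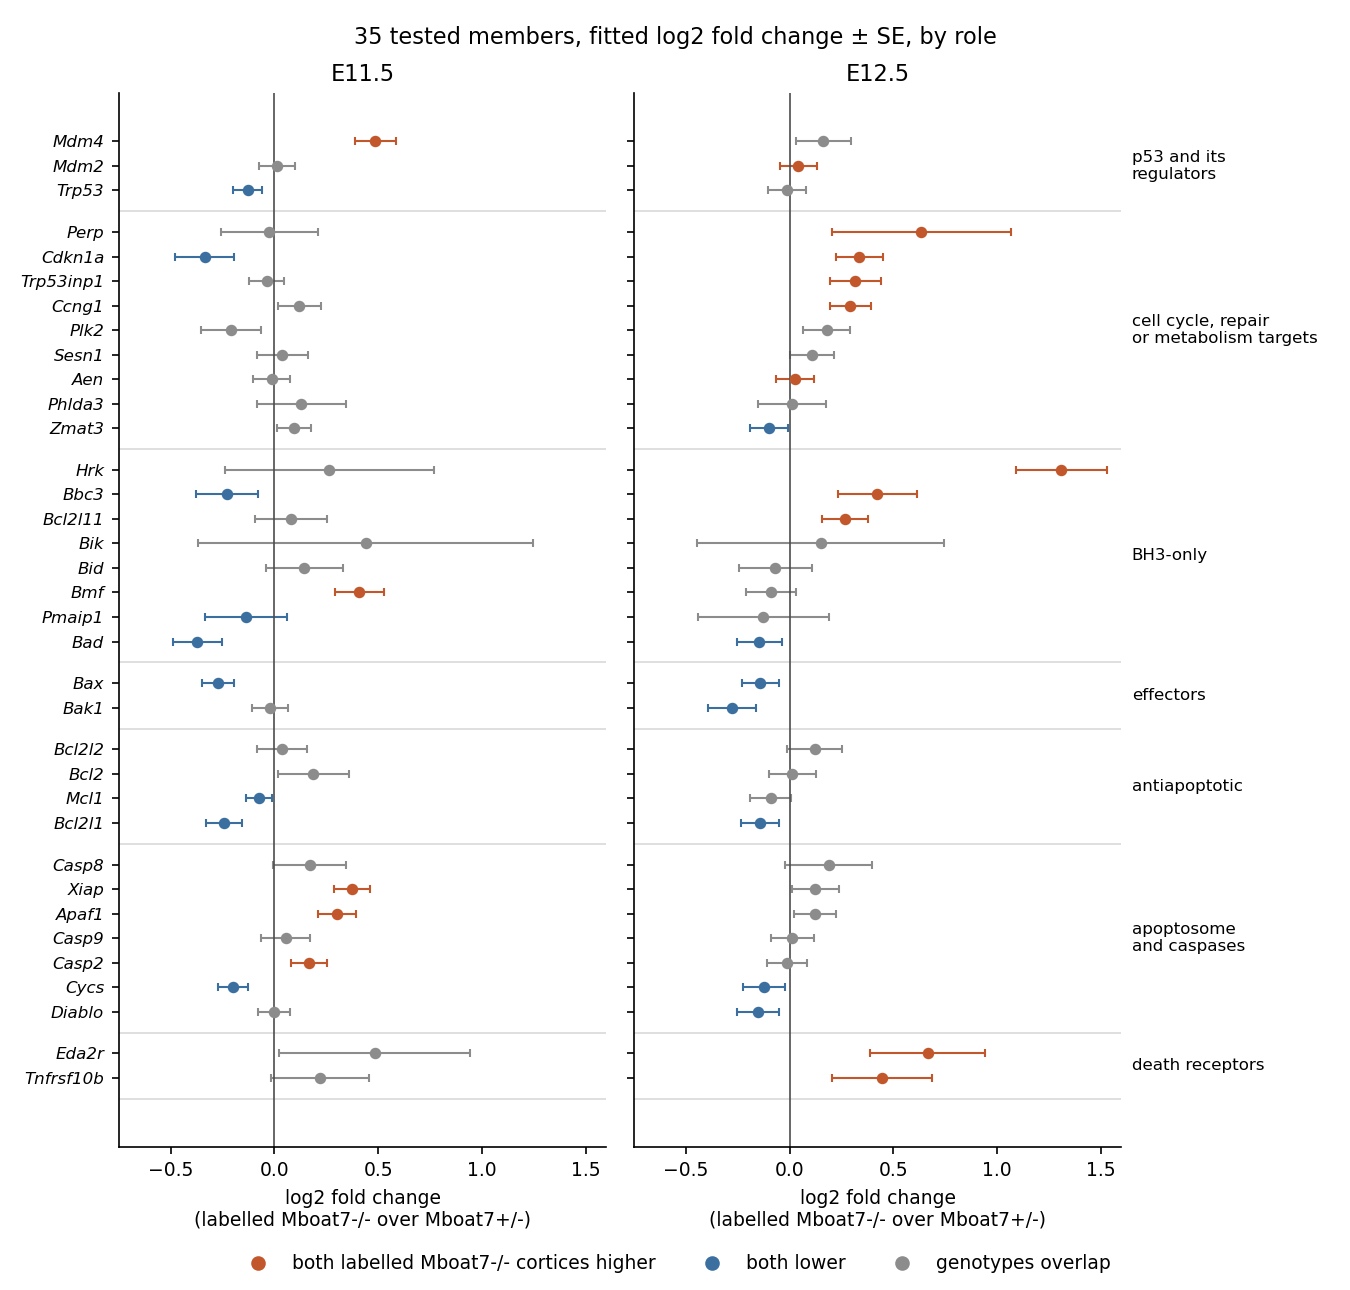
Fitted log2 fold change (labelled Mboat7-/- over Mboat7+/-, horizontal axis) with its standard error for the 35 tested members, grouped by role, at E11.5 and E12.5. Orange marks genes whose labelled Mboat7-/- cortices were both higher, blue both lower and grey an overlap. At E12.5 most orange lies among the p53 targets, BH3-only genes and death receptors, with Hrk far to the right at 1.31. Of the 8 BH3-only genes, 4 lie below 0 at E12.5.

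At E11.5 the members split differently. Both labelled Mboat7-/- cortices lay above both Mboat7+/- cortices for 5 members (14.3%, against 23.1% of the 14935 genes tested): Mdm4, Bmf, Xiap, Apaf1 and Casp2. Both lay below for 9 members (25.7%, against 23.3%): Bad, Bax, Bcl2l1, Cdkn1a, Cycs, Bbc3, Pmaip1, Trp53 and Mcl1. No member and no gene of all those tested reached an FDR under 0.05 (0% of both, edgeR's quasi-likelihood test, p adjusted by Benjamini-Hochberg), while 9 members had an unadjusted p under 0.05 (25.7%, against 13.8% of all genes), 4 of them higher (11.4%, against 7.94%) and 5 lower (14.3%, against 5.81%). DESeq2 gave 168 genes and edgeR's exact test 174 at that FDR, each with 1 member, Mdm4. With the replicate block 349 genes reached it, among them Mdm4 and Xiap, with adjusted p of 0.0218 and 0.049 (edgeR's quasi-likelihood test). The median log2 fold change of the tested members was 0.04, and that of all genes was -0.01.

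Of the genes higher without overlap at E11.5, Mdm4 was at 44.1 and 39.9 CPM in Mboat7+/- and 61.6 and 55.9 CPM in labelled Mboat7-/- cortices, a log2 fold change of 0.48 (standard error 0.10). Bmf, a BH3-only gene tied to the cytoskeleton, was at 35.9 and 35.3 CPM against 51.9 and 42.5 CPM, a log2 fold change of 0.41 (standard error 0.12) that was 0.26 without labelled Mboat7-/- replicate 1. Xiap, the caspase inhibitor encoded on the X chromosome, was at 47.9 and 51.3 CPM against 66.5 and 62.0 CPM, a log2 fold change of 0.37 (standard error 0.09). The lowest of these Xiap values came from the cortex with Xist, whose part in the result was not tested. Apaf1, the scaffold of the apoptosome, was at 41.8 and 43.9 CPM against 52.7 and 53.01 CPM, a log2 fold change of 0.30 (standard error 0.09). Casp2, the caspase of the PIDDosome, differed by 0.17 (log2, standard error 0.08).

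The lower genes at E11.5 included the effector Bax and the target Cdkn1a. Bad was at 32.2 and 34.3 CPM in Mboat7+/- and 24.9 and 26.5 CPM in labelled Mboat7-/- cortices, a log2 fold change of -0.37 (standard error 0.12). Cdkn1a was at 17.96 and 17.8 CPM against 13.9 and 14.4 CPM, a log2 fold change of -0.34 (standard error 0.14). For both genes the gap between the genotypes exceeded the spread within either. Bax was at 95.1 and 91.0 CPM against 74.3 and 79.8 CPM, a log2 fold change of -0.27 (standard error 0.08). Bcl2l1 was at 117 and 121 CPM against 92.9 and 108 CPM, with a log2 fold change of -0.24 that was -0.14 without labelled Mboat7-/- replicate 1 and -0.36 without labelled Mboat7-/- replicate 2. Cycs was at 93.7 and 91.2 CPM against 82.4 and 78.7 CPM, with -0.20. In both genes the labelled Mboat7-/- cortices were the 2 lowest. Bbc3 was at 16.99 and 15.9 CPM against 14.4 and 13.7 CPM, a log2 fold change of -0.23 (standard error 0.15). Trp53 was at 171 and 164 CPM against 160 and 147 CPM, a log2 fold change of -0.13 (standard error 0.07). Pmaip1 and Mcl1 were lower by less, with log2 fold changes of -0.14 and -0.07. Eda2r and Bik, with counts below 100 as for Hrk, overlapped at E11.5 despite log2 fold changes of 0.48 and 0.44. Eda2r had counts of 24 and 54 against 77 and 42 and Bik of 20 and 11 against 9 and 37, so that Eda2r, also on the X chromosome, was lowest in the cortex with Xist. The other 9 p53 targets and death receptors that passed the filter (Aen, Ccng1, Perp, Phlda3, Plk2, Sesn1, Tnfrsf10b, Trp53inp1 and Zmat3) overlapped, with log2 fold changes from -0.21 to 0.22, and so did Bak1, Bcl2, Bcl2l11, Bcl2l2, Bid, Casp8, Casp9, Diablo and Mdm2, with -0.02 to 0.19.

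Transcript length moved with the E11.5 differences. The longest transcripts of Mdm4, Xiap, Apaf1 and Bmf measure 7105, 6834, 6577 and 4642 nucleotides, and those of Bax, Bad and Cdkn1a 1100, 1533 and 2080. With all genes split by length into 3 classes of like size, the median log2 fold change at E11.5 was -0.10 in the shortest class and 0.11 in the longest. Across the 35 tested members, Spearman's rho of length and log2 fold change came to 0.52 at E11.5 and 0.19 at the later stage (the points are genes, which share libraries and are not independent). A trend with length and GC content was then taken out of each library, a choice made after the data were seen. Without it 3 members in place of 9 had an unadjusted p under 0.05 at E11.5, and 6 in place of 8 at E12.5. At E11.5 the log2 fold change of Xiap went from 0.37 to 0.19, of Apaf1 from 0.30 to 0.16, of Bax from -0.27 to -0.15, of Bad from -0.37 to -0.24 and of Mdm4 from 0.48 to 0.31 in that fit. The value of Hrk at E12.5 went from 1.31 to 1.30.

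**Figure D3:**
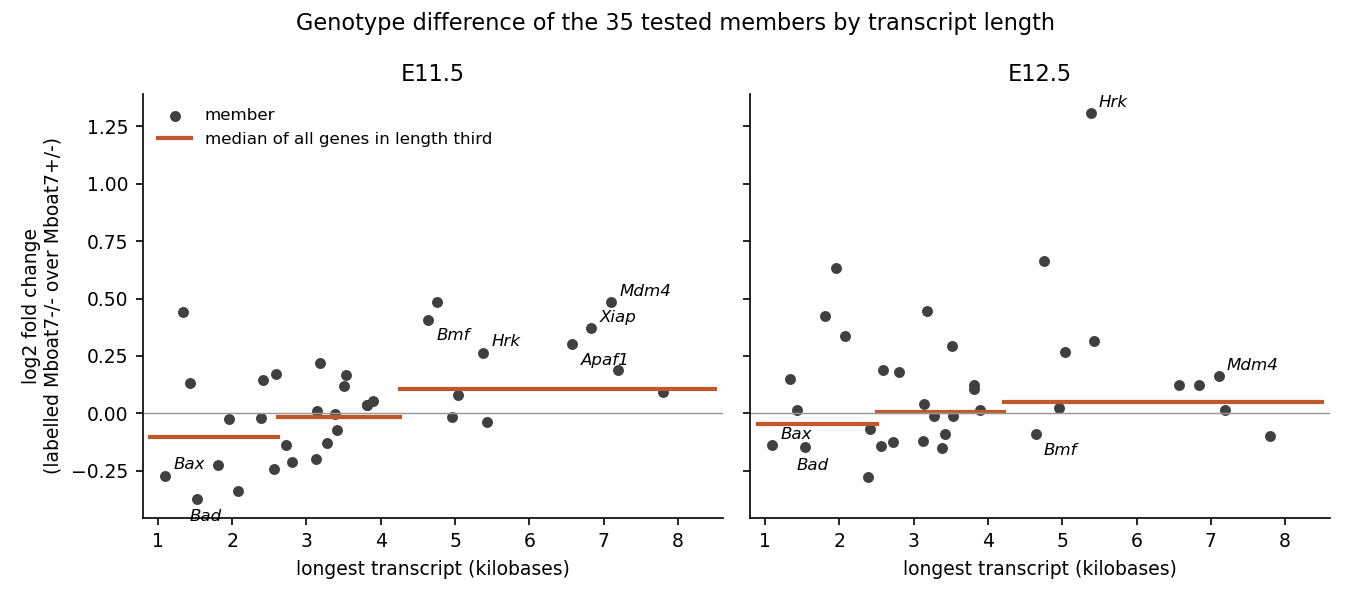
Log2 fold change (labelled Mboat7-/- over Mboat7+/-, vertical axis) against the length of the longest transcript in kilobases (horizontal axis) for the 35 tested members, with an orange line at the median of all genes in each of 3 length classes. At E11.5 the members climb with length (Spearman's rho 0.52) from Bax and Bad to Mdm4, whereas at E12.5 Hrk stands alone above a flatter cloud.

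The stages were set beside each other gene by gene. Bad, Bax, Bcl2l1 and Cycs were lower without overlap at both stages, 11.4% of the tested members against 4.89% of the 13650 genes tested at both. Cdkn1a and Bbc3 were lower without overlap at E11.5 and higher without overlap at E12.5 (5.71%, against 2.62%). No member was higher without overlap at both (against 4.75%) or higher at E11.5 and lower at E12.5 (against 2.53%). A fit over all 8 cortices gave the difference between the genotype differences (E12.5 minus E11.5). It was 0.67 for Cdkn1a (standard error 0.17, adjusted p = 0.498) and 0.65 for Bbc3 (standard error 0.22, adjusted p = 0.836), and for Bmf it was -0.50 (standard error 0.18, adjusted p = 0.843, all from edgeR's quasi-likelihood test). These 3 were the members with an unadjusted p under 0.05, 2 upward (5.71%, against 2.63% of the 15017 genes tested) and 1 downward (2.86%, against 3.07%). No member and no gene of all those tested reached an FDR under 0.05 in this fit, where 395 genes upward and 461 downward had an unadjusted p under 0.05 and DESeq2 called 0 members.

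Labelled Mboat7-/- and Mboat7+/- cortices with the same batch number were also set side by side. This pairing rests on the labels alone. Deviations within these pairs were almost uncorrelated (0.05 for the E11.5 cortices, -0.12 for the E12.5 ones). The pairs can therefore not be taken as matched, and the counts are a description. At E12.5, 13 of 35 members were higher within both batches (37.1%, against 23.4% of all genes) and 7 were lower within both (20%, against 20.5%). The 13 were the 11 without overlap together with Apaf1 and Casp8. At E11.5, 11 were higher (31.4%, against 30.8%) and 12 lower (34.3%, against 31.6%). The E11.5 shares thus lay close to those of all genes.

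Levels between genes can be compared only per length, as CPM per kilobase of the longest transcript, with the scale set within each stage. Bax was the most abundant member at both stages, at a mean of 77.3 (range 67.6 to 86.5 in 4 cortices) at E11.5 and 71.8 (67.5 to 76.3) at E12.5. Mcl1, the short-lived antiapoptotic protein's gene, followed at 62.9 and 51.5, and its range did not meet that of Bax at either stage. Trp53 (49.0 and 41.6) and Bcl2l1 (42.7 and 48.6) came next and overlapped in range at E11.5. Bcl2, at 3.22 and 3.67, was far below Bcl2l1 and Mcl1. The BH3-only genes spread widely at E11.5, from 19.2 for Bad to 0.317 for Hrk. Hrk ranked 35 of 36 at E11.5, above Fas alone, with a range that met those of Bik and Eda2r. At E12.5 it ranked 30 at 1.496. These means pool both genotypes, and at E12.5 Hrk ranged from 0.722 to 2.39.

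**Figure D4:**
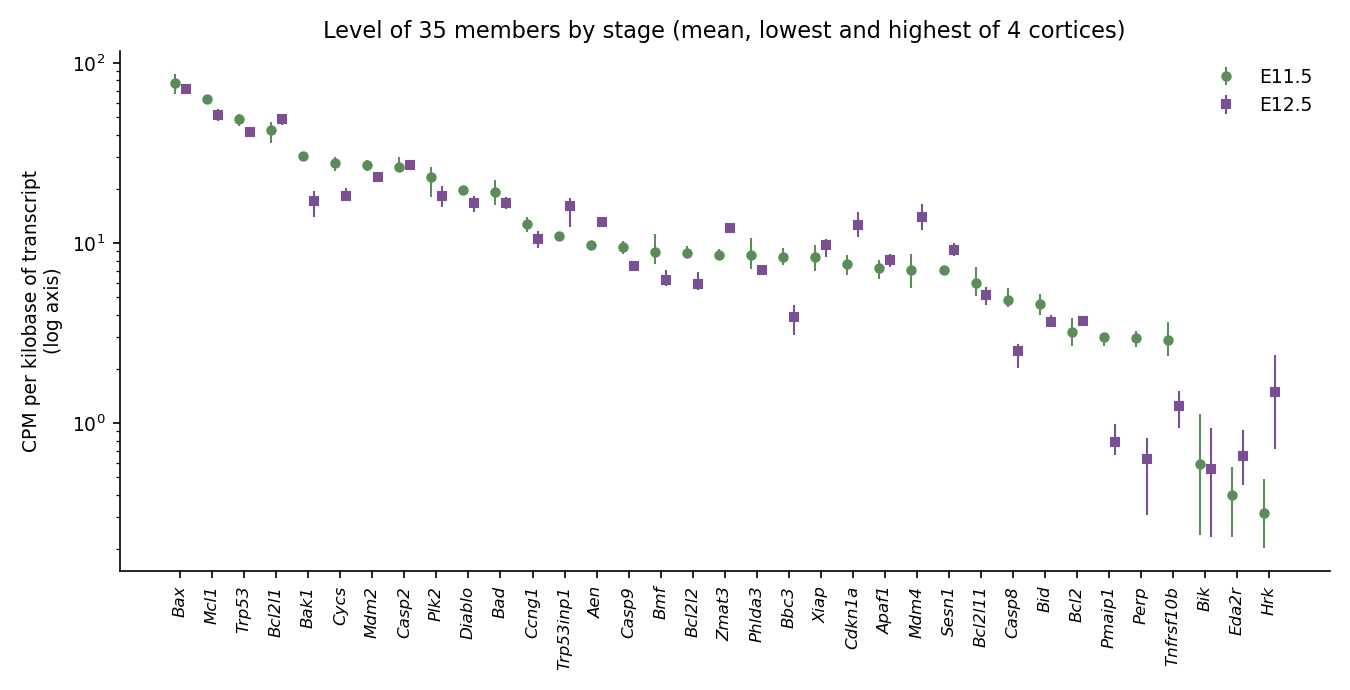
Mean level of 35 members in CPM per kilobase of the longest transcript (vertical log axis) at E11.5 (circles) and E12.5 (squares), with lines from the lowest to the highest of 4 cortices and genes ordered by their E11.5 level. Bax and Mcl1 lie highest at both stages, Bbc3, Pmaip1 and Perp are lower at E12.5, and Hrk, lowest at E11.5 (0.317), is at 1.496 at E12.5.

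On a scale set over all 8 cortices, the level of each gene can be put side by side between the stages, as a description in which stage and provider cannot be told apart. All 4 E12.5 cortices lay above all 4 E11.5 cortices for 10 members (28.6%, against 29.2% of genes) and below for 8 (22.9%, against 29.9%). Hrk went from 1.63 ± 0.63 to 8.96 ± 4.64 CPM (SD, n = 4), a ratio of 5.50. All values of this comparison pool both genotypes, so the ratio and SD of Hrk include its genotype difference at E12.5. On the separate scale of each stage, Mboat7+/- cortices were at 1.616 and 1.47 CPM at E11.5 and 5.38 and 3.89 CPM at E12.5. Labelled Mboat7-/- cortices were at 1.096 and 2.63 CPM, then 10.1 and 12.9 CPM. Mdm4 was 2.28-fold and Cdkn1a 1.91-fold higher at E12.5, so that 2 members, Hrk and Mdm4, were at least 2-fold higher without overlap (5.71%, against 9.24% of genes). In the other direction, Perp was 4.01-fold, Pmaip1 3.27-fold, Tnfrsf10b 2.01-fold and Bbc3 1.87-fold lower at E12.5, and 3 were at least 2-fold lower without overlap (8.57%, against 11.8%). The surface ectoderm markers, of which Krt5 and Krt14 were at 0 in every E12.5 cortex, summed to between 39.2 and 60.2 CPM at E11.5 and between 5.47 and 6.59 CPM at E12.5, and their part in the level of Perp, which epidermal cells express strongly, was not tested.

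Of 83 other genes of these pathways, grouped in 7 lists, 69 were tested at E11.5 and 66 at E12.5, and 0 reached an FDR under 0.05 at either stage (edgeR's quasi-likelihood test, p adjusted by Benjamini-Hochberg). At E12.5, 4 had an unadjusted p under 0.05, all higher (against 2.76% of all genes), and at E11.5 5 of 69 were higher and 3 lower (against 7.94% and 5.81% of all genes). In the p53 target list, 11 of 19 tested genes were above 0 at E12.5 (against 51.2% of all genes) with a median log2 fold change of 0.07, and at E11.5 it was 8 of 20 (against 49.0%) with a median of -0.11. Sesn2, a leucine sensor that restrains mTORC1, differed most in that list at E12.5, at 12.7 and 14.1 CPM in Mboat7+/- and 18.7 and 18.4 CPM in labelled Mboat7-/- cortices (log2 fold change 0.47, standard error 0.13). At E11.5 it was Trp53cor1, the long noncoding RNA beside Cdkn1a, with a log2 fold change of -0.65 from counts of 32 and 30 against 25 and 19.

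In the list of genes upstream of BH3-only genes, 6 of 9 were above 0 at E12.5 (against 51.2% of all genes), and 3 were higher at an unadjusted p under 0.05 (against 2.76%). They were Jun, Foxo3 and Ddit3, named after their values were seen. Jun, the transcription factor that drives Hrk and Bcl2l11 in neurons deprived of trophic support, was at 117 and 112 CPM in Mboat7+/- and 142 and 145 CPM in labelled Mboat7-/- cortices, a log2 fold change of 0.33 (standard error 0.09). Foxo3, which also drives Bcl2l11, was at 41.0 and 36.1 CPM against 49.1 and 48.2 CPM, a log2 fold change of 0.33 (standard error 0.10). Ddit3 (Chop), an endoplasmic reticulum stress factor, was at 8.30 and 6.80 CPM against 11.1 and 10.9 CPM, with 0.54 (standard error 0.18), whereas its target Trib3 differed most in the list, with a log2 fold change of -0.69 at E12.5 and -0.55 at E11.5. The genotypes of Jun, Foxo3 and Ddit3 were apart at E12.5. Foxo3 was also higher without overlap at E11.5, at 9.55 and 12.3 CPM against 14.8 and 15.3 CPM (log2 fold change 0.45, standard error 0.18). At that stage Jun overlapped, with a log2 fold change of 0.02, and Ddit3 was lower without overlap, with -0.15.

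In the remaining lists the gene with the largest difference is given. Among the inhibitors of apoptosis and mitochondrial factors, Birc3 differed by 0.78 (log2, standard error 0.36) at E12.5 from counts of 19 and 22 against 38 and 38, and Sept4 had -0.38 at E11.5. Among the regulators of p53 and the damage response, Hipk2, a kinase that phosphorylates p53, was at 48.3 and 29.4 CPM against 67.0 and 59.6 CPM at E11.5 (log2 fold change 0.71, standard error 0.20), and at E12.5 the largest was Atr with 0.15. Bnip3, a mitophagy receptor, had 0.30 at E11.5 and -0.23 at E12.5. Of the caspases and adaptors, Tradd had -0.39 at E11.5 and Fadd -0.18 at E12.5, and of the receptors Tnfrsf21 had -0.11 at E11.5 and Ngfr -0.14 at E12.5.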

How the data were processed

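Poly(A)-selected RNA of 8 cortices was sequenced as directional libraries. The authors deposited raw counts of reads per gene, without normalization, in a table for each stage. The submitters' processing notes name HISAT2, Subread, mm10 and GRCm39 without roles, and the annotation is not given in the sources used here. Identifiers of the E12.5 table were matched to symbols for 81.4% of those with a count (98.9% of counts). All table columns were mapped to samples by name.

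The members and lists were chosen with earlier results of these data known. The stages were fitted separately by the quasi-likelihood test of edgeR 4.0.16 (R 4.3.3), after TMM normalization and filterByExpr (minimum count 10), with p adjusted over all genes tested by Benjamini-Hochberg, and a further fit over both stages tested the interaction. Fold changes used a prior count of 0.125. CPM used normalized library sizes, which the tables of each stage set separately. Lengths are those of the longest GENCODE M21 transcript. Values in every cortex are given for Hrk and Trp53, the 10 tested members with the largest log2 fold change at each stage and members without overlap at both stages. In each list the gene with the largest log2 fold change and at least 1 CPM is named. Further genes were named with their values already seen.

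Alternatives were RLE size factors, DESeq2 1.42.0, the exact test of edgeR, a filter of at least 10 counts in all cortices or none, a block for the replicate number, and leaving out each cortex. After the data were seen, a length and GC trend (splines of 5 degrees of freedom) and a crossed pairing were added. The replicate number was taken as a batch to pair cortices, although the sample titles name only a biological replicate. The correlation of paired deviations across genes was 0.05 in the E11.5 and -0.12 in the E12.5 cortices. Chi-square per degree of freedom between cortices of a stage was between 4.41 and 24.7, so all were counted separately. On simulated data with log2 changes of 1 or 2 in either direction, the test found 165 of 200 changed genes at E11.5 and at E12.5. In the interaction it found 145 of 200. Of the changes of 1, it found 68 of 94 at E11.5, 73 of 98 at E12.5 and 65 of 100 in the interaction. Smaller changes, like those of most members, were not simulated.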

Additional observations from a re-analysis of the deposited data

Results flagged for a closer look

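In 2 members the genotypes did not overlap at either stage and the genotype difference had the opposite sign. The difference itself also differed between the stages at an unadjusted p under 0.05. For Cdkn1a, the difference at E12.5 was 0.67 above that at E11.5 on the log2 scale, from -0.34 to 0.34, and for Bbc3 it was 0.65 above, from -0.23 to 0.42. Bmf met the same unadjusted p and turned the other way, from 0.41 to -0.09 (difference -0.50), with genotypes that overlapped at E12.5. None of these genes reached an FDR under 0.05 over all genes. Their adjusted p was 0.498 for Cdkn1a, 0.836 for Bbc3 and 0.843 for Bmf (edgeR's quasi-likelihood test). All were picked out of 35 members, and stage cannot be told apart from the sequencing provider.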

How the results depend on the processing

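The replicate block follows the biological replicate numbers of the titles. With it, the genes with an FDR under 0.05 numbered 349 in place of 0 at E11.5 and 21 in place of 3 at E12.5. The members numbered 2 and 1 in place of 0. Members with an unadjusted p under 0.05 went from 8 to 4 at E12.5 and from 3 to 6 in the interaction under the block, and the log2 fold change of Bik at E12.5 went from 0.15 to -0.016. The 4 lost at E12.5 were Bak1, Bbc3, Bcl2l11 and Eda2r, and at E11.5 the unadjusted p of Cdkn1a in the quasi-likelihood test went from 0.0459 to 0.0503. With a crossed pairing at E12.5, added after seeing the data, 151 genes and 1 member reached the FDR.

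At E11.5 the genes with an FDR under 0.05 were 168 by DESeq2, 174 by the exact test, 317 without a filter, 2 with at least 10 counts in every cortex and 6 with the length and GC trend removed under the block; the members were 1, 1 and 2 by the first 3 of these. At E12.5 the genes were 10 by DESeq2, 27 by the exact test, 0 without a filter, 0 with at least 10 counts in every cortex, 1 with the trend removed and 52 with the trend removed under the block, and 1 member, Hrk, was called by DESeq2, by the exact test and with the trend removed under the block. Members with an unadjusted p under 0.05 were 3 at E11.5 with the trend removed. At E12.5 they were 4 by DESeq2 and 3 with the trend removed under the block. In the interaction they were 7 without a filter and 5 with the trend removed. The cause of these changes was not tested.

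Leaving out each cortex gave between 1 and 1180 genes at E11.5 and between 33 and 301 at E12.5. The largest count at E11.5 came without labelled Mboat7-/- replicate 2, where 6 members were called (Bax, Bcl2l1, Bmf, Mdm4, Plk2 and Xiap), against 0 at the least. These fits leave 1 cortex in a group and assume that it varied like the others. The log2 fold change of Hrk at E12.5 lay between 1.09 and 1.56 in them. Members with an unadjusted p under 0.05 lay between 4 and 10 at E11.5, between 3 and 7 at E12.5 and between 3 and 6 in the interaction. The median log2 fold change of the members lay between 0.0016 and 0.038 at E11.5, lowest without labelled Mboat7-/- replicate 1, and between 0.029 and 0.14 at E12.5, highest without Mboat7+/- replicate 1.

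Signs turned in the following members. With the trend removed, alone and then under the block, Bak1 at E11.5 had 0.065 and 0.062, Perp at E11.5 0.039 and 0.032, Trp53 at E12.5 0.0081 and 0.0076 and Xiap at E12.5 -0.029 and -0.028, and Bcl2l11 at E11.5 had -0.013 with the trend removed under the block. When cortices were left out, log2 fold changes at E11.5 ranged from -0.097 to 0.050 for Bak1, from -0.21 to 0.32 for Bcl2l11, from -1.04 to 1.18 for Bik, from -0.49 to 0.77 for Hrk, from -0.18 to 0.11 for Perp, from -0.061 to 0.45 for Tnfrsf10b and from -0.11 to 0.031 for Trp53inp1. At E12.5 they ranged from -1.18 to 0.83 for Bik, from -0.22 to 0.056 for Bmf, from -0.030 to 0.33 for Mdm4, from -0.059 to 0.029 for Trp53 and from -0.020 to 0.28 for Xiap. Of 498 values of named members under the alternatives, 453 kept their sign and side of the threshold. With 2 embryos per genotype, and counts under 110 for Eda2r, Tnfrsf10b, Pmaip1, Perp, Bik and Fas at E12.5, differences of the size seen in most members could not be told from the spread between embryos.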
